A study of Homo sapiens with 21 samples.

Results

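HMLE, a cell line of human mammary epithelium that was immortalized in culture, was sequenced before treatment (d0) and on day 4 of treatment with TGFβ (d4), and the 2 groups were compared across all genes. The 3 libraries of day 1 (d1) are set beside them where the day of a change is given. Each group had 3 libraries, 6 of the 21 in a time course that ran to day 20. The deposited values are reads per gene symbol divided by 1 size factor per library, here called normalized values. The comparison took every gene with a mean of at least 10 over these 6 libraries, which kept 13336 of 23201 gene symbols. At that limit, *COL23A1* was just inside with a mean of 10.003 and *CCDC158* just outside with 9.998. All cells were seeded at one density, and no genotype or second agent separates the groups. The untreated cells were sampled once, at the start, so days in culture and TGFβ cannot be told apart, and the isoform and dose of TGFβ are not given in the sources used here. The study calls the libraries biological triplicates, and no label says which wells or passages they came from.

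The 6 libraries held between 18847917 and 21700232 reads, so that counting error was small for all but the lowest genes. The root mean square log2 difference over genes was 0.21 to 0.24 for libraries of one group and 0.89 to 0.91 between d0 and d4. Libraries are numbered 1 to 3 within a group by the order of their columns, which is a name only.

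TGFβ binds a type II receptor that activates a type I receptor, and the activated pair phosphorylates SMAD2 and SMAD3, which enter the nucleus with SMAD4 and bind target genes. In epithelial cells the pathway is known to halt the cell cycle and to start the epithelial-to-mesenchymal transition (EMT), in which SNAI, ZEB and TWIST factors replace junctions and keratins with matrix, integrins and contractile filaments. Mammary epithelial lines are a common system for this transition because it takes days and passes through intermediate states.

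The labelled cell type was checked against its markers. Basal markers, the keratins *KRT5*, *KRT14* and *KRT17*, the transcription factor *TP63*, the integrin *ITGA6* and the laminin *LAMB3*, were all detected at both times, and their summed value was 345221 to 369370 per library at d0 and 398936 to 413483 at d4. The higher sum at d4 rested on *LAMB3*, and without it the sum was 336386 to 360554 at d0 and 282107 to 290951 at d4. Of 8 luminal markers, 7 were detected, and *PGR*, the progesterone receptor, had no read in any of the 6 libraries. The luminal sum was 17633 to 18976 at d0 and 13078 to 13258 at d4. *EPCAM*, an epithelial adhesion molecule in that list, had values of 2162, 2058 and 2099 at d0 and 609, 520 and 565 at d4. Of the markers of other tissues, *PTPRC* and *CD3E* of immune cells, *CDH5* of endothelium, *DCN* and *LUM* of fibroblasts and *HBB* of red cells had at most 1 read in any library. Others in those lists were detected at low levels, apart from *COL1A1* of the fibroblast list. *COL1A1* went from a mean of 462 at d0 to 4056 at d4. In the same list *COL3A1* went from 7.81 to 16.8 and *PDGFRA*, below the filter on low values, from 1.19 to 5.66. The fibroblast sum was 454.8 to 487.8 at d0 and 3902 to 4274 at d4. *CD14* went from a mean of 46.4 to 16.4 and *LYZ* from 18.3 to 14.8 in the immune list, and *PECAM1* went from 41.3 to 10.5 and *KDR* from 42.1 to 65.8 in the endothelial list. The immune sum was 61.4 to 71.2 at d0 and 22.4 to 37.9 at d4, and the endothelial sum was 81.1 to 105 at d0 and 68.5 to 98.9 at d4.

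Most genes differed between d0 and d4, 72.4% in either direction. On log2(value + 1), limma with Benjamini-Hochberg adjustment called 4883 of 13336 genes higher (36.6%) and 4769 lower (35.8%) at an adjusted p under 0.05. With at least a 2-fold change as well, 1247 were higher (9.35%) and 728 lower (5.46%). All d4 libraries were above all d0 libraries in 39.1% of genes and below them in 38.4%. Large changes were mostly increases: 143 genes rose and 40 fell by at least 8-fold, and 24 rose and 3 fell by at least 32-fold. The split depends on the scaling of the libraries. With all libraries set to one total, the 2-fold counts were 941 higher and 1107 lower, the higher genes made up 45.9% of the calls in place of 63.1%, and the median of all genes shifted from 0 to -0.195 on the log2 scale. Every member or list described below that turned its direction under that scaling or under quantile normalization is named where it appears. The counts of list members given below are to be read against the 36.6% and 35.8% of all genes that passed. Statements that the libraries of d0 and d4 do not overlap are to be read against the 39.1% and 38.4% of all genes. Counts of members at d4 against d1 are to be read against 33.0% of all genes higher and 31.9% lower.

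**Figure D1:**
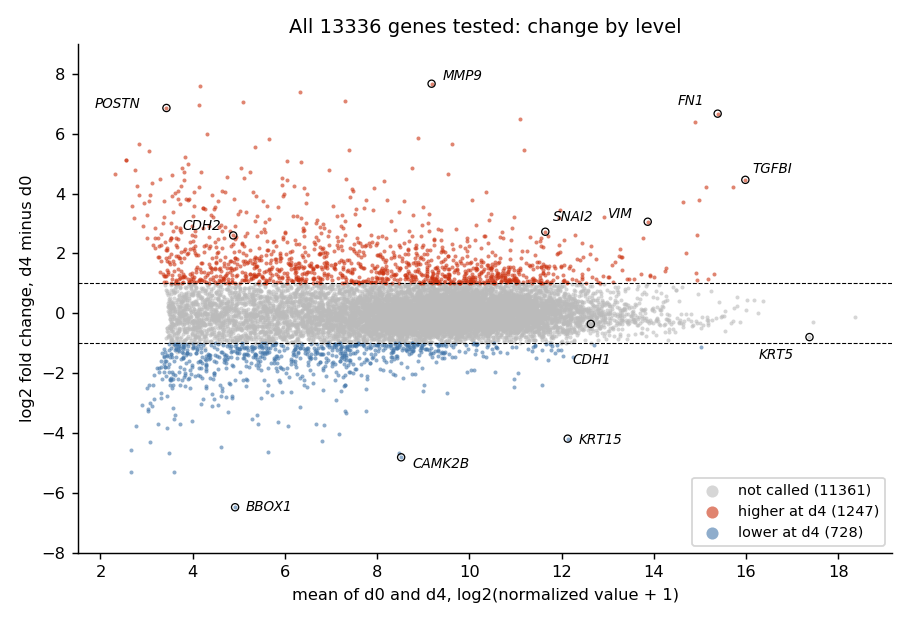
Each point is 1 of the 13336 genes tested, with the mean level of d0 and d4 on the x axis (log2 of the normalized value + 1) and the log2 fold change of d4 over d0 on the y axis. Red points are the 1247 genes called higher and blue points the 728 called lower, and dashed lines mark a 2-fold change. *FN1* and *TGFBI* are among the genes with a high normalized value that are more than 16-fold higher at d4.

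A few secreted and adhesion genes took a large share of the library by d4. The 8 genes with the largest gain in value included *FN1*, *TGFBI*, *LAMA3*, *LAMB3* and *THBS1*, which encode matrix proteins, and *ITGB4*, a subunit of a laminin receptor. Together the 8 held 0.38% of the summed values at d0 and 8.01% at d4. The summed value of all genes rose by 2699902 between the group means, net of the genes that fell. The gain of these 8 genes equalled 60.1% of that net rise, so their part of all increases was smaller. *FN1* alone went from 0.022% to 0.024% of a library at d0 to 2.00% to 2.10% at d4. The share is a share of normalized values, not corrected for gene length.

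The largest increases are given for genes with a mean of at least 50 in either group. *MMP9*, a gelatinase that degrades basement membrane collagen, had values of 39.2, 46.6 and 33.6 at d0 and 8487, 7824 and 8478 at d4 (log2 fold change 7.67, SE 0.23, adjusted p = 2.46e-17, limma). Every d4 library was more than 100-fold above every d0 library. *FN1*, fibronectin, the matrix ligand of several integrins, had 4451, 4110.3 and 4168 at d0 and 425548, 431155 and 441115 at d4 (log2 fold change 6.67, SE 0.06, adjusted p = 3.12e-26, limma). The 3 libraries of each group lay within a narrow band, and the groups were far apart. *TGM2*, a transglutaminase that crosslinks matrix proteins, rose from 231 ± 14.9 to 20992 ± 801 (SD, n = 3, log2 fold change 6.50, SE 0.09, adjusted p = 3.29e-23, limma). *COL22A1*, a collagen chain, and *SCG5*, a chaperone of neuroendocrine secretory granules, rose by 7.41 and 7.09 on the log2 scale.

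Several of the most strongly raised genes were nearly silent at d0. *POSTN*, periostin, a matricellular protein of mesenchymal cells, had no read in any d0 library and values of 114, 113 and 119 at d4, at least 42.3-fold higher than a floor of 3 reads per library. *CDH11*, a mesenchymal cadherin, had 0, 0.85 and 0.99 at d0 and 179.8, 202 and 195 at d4, a ratio of reads of 319 (exact 95% interval 87.8 to 2638, counting error only). *MYO7B*, an unconventional myosin, had 0, 0 and 0.99 at d0 and 241, 210.3 and 272 at d4, a ratio of reads of 799 (143 to 31590). *WNT5B*, a noncanonical WNT ligand, had 0.89, 0.85 and 4.95 at d0 and 358, 375 and 355 at d4. Among all genes called higher, 28 had at most 3 reads in each d0 library. These genes passed the filter on low values only through d4, and their fitted fold changes depend on the pseudocount.

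**Figure D2:**
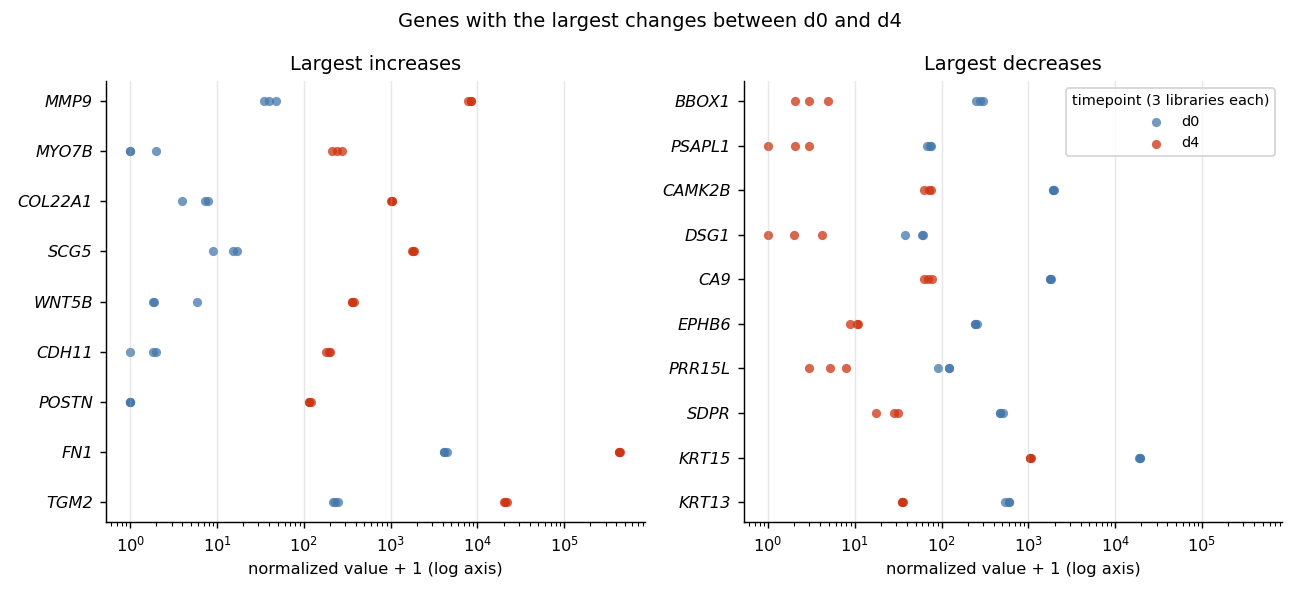
Normalized value + 1 on a log axis in each of the 3 libraries of d0 (blue) and d4 (red), for 9 of the 10 genes with the largest increase (left) and the 10 with the largest decrease (right) among called genes with a mean of at least 50 in either group. *MMP9* moves from 33.6 to 46.6 at d0 to 7824 to 8487 at d4. The groups do not overlap for any gene shown. The genes were chosen by the size of their change in these same libraries, so the lack of overlap adds nothing to it.

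The largest decrease by the same rule was in *BBOX1*, the last enzyme of carnitine synthesis, which had values of 303, 277 and 249 at d0 and 1.05, 1.95 and 3.92 at d4 (log2 fold change -6.48, SE 0.57, adjusted p = 1.65e-09, limma). *CAMK2B*, a calcium-dependent kinase, had 1929, 1909 and 1988 at d0 and 73.6, 61.4 and 70.5 at d4 (log2 fold change -4.81, SE 0.12, adjusted p = 1.16e-18, limma). *CA9*, a carbonic anhydrase known as a target of the hypoxia factor HIF1, had 1756, 1824 and 1763 at d0 and 76.8, 62.3 and 69.5 at d4 (log2 fold change -4.66, SE 0.13, adjusted p = 6.32e-18, limma). For all 3 genes the lowest d0 library was more than 20-fold above the highest d4 library. *KRT15*, a keratin of basal and progenitor epithelial cells, fell from 19185 ± 219 to 1053 ± 22.3 (SD, n = 3, log2 fold change -4.19, SE 0.22, adjusted p = 2.26e-13, limma), and *KRT13*, a keratin of mucosal epithelium, fell from 582 ± 36.2 to 34.3 ± 0.83. *DSG1*, a desmosomal cadherin of stratified epithelium, went from 59.6, 58.5 and 36.6 to 3.16, 0.97 and 0, with at most 3 reads in a d4 library. Its ratio of reads, d0 over d4, was 39.15 (15.02 to 145.3). *EPHB6*, an ephrin receptor, fell from a mean of 245 to 9.01 and *SDPR*, a caveolar protein, from 483 to 24.8. *PSAPL1* and *PRR15L* complete the 10, with log2 fold changes of -5.31 and -4.47. *PSAPL1* had at most 3 reads in each d4 library, and its ratio of reads, d0 over d4, was 71.5 (24.2 to 349).

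Promoter sequences from RefSeq (GRCh38.p14, 250 bases before to 50 after the start) were matched to 10328 of the tested genes, 1083 of them through an older symbol. They were searched on both strands for CAGGTG, an E-box known to be bound by SNAI and ZEB factors, for AGCCAGACA, a SMAD site, and for TGANTCA, an AP-1 site. CAGGTG was present in 26.8% of 507 promoters of genes lower at d4, in 18.1% of 918 promoters of genes higher, in 18.4% of all promoters of tested genes and in 20.6% of 27305 promoters in the table. The median GC content was 63.0% for the lower genes, 66.5% for the higher and 65.3% for all tested, and its part in these shares was not tested. TGANTCA was present in 7.89% of the lower, 6.21% of the higher and 4.67% of all tested genes. AGCCAGACA was present in 2 promoters of higher genes (0.218%), in none of the lower and in 23 of all tested (0.223%). *CDH1* and *MMP9* are named only. The 300 bases of *SMAD7* held none of these letters. The promoters of *BBOX1*, the gene with the largest decrease, and of the other genes among the 10 largest decreases that hold CAGGTG are printed to show where the letters lie, and the latter were chosen after their values were seen. Capitals mark CAGGTG, which reads CACCTG when it lies on the other strand, and also TGANTCA, and a match is a match of letters only.
BBOX1 promoter, chr11:27040565-27040864, plus strand: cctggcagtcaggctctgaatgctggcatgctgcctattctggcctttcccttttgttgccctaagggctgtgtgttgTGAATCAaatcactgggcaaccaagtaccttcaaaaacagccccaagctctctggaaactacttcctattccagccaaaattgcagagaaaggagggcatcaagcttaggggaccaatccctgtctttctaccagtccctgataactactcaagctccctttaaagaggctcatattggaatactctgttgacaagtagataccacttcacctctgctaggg
CAMK2B promoter, chr7:44325545-44325844, minus strand: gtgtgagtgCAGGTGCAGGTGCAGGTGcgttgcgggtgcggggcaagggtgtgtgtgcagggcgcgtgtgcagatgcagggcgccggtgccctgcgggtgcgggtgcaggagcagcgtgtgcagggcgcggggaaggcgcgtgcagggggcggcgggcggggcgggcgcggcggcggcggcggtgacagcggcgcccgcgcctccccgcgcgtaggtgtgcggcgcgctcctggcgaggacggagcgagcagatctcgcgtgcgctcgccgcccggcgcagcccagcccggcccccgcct
DSG1 promoter, chr18:31317910-31318209, plus strand: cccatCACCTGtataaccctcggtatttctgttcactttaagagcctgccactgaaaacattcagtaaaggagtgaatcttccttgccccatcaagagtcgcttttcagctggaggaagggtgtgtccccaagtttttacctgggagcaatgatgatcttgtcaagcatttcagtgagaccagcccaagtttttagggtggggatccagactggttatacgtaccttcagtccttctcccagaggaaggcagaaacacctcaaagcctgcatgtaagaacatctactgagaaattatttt
CA9 promoter, chr9:35673678-35673977, plus strand: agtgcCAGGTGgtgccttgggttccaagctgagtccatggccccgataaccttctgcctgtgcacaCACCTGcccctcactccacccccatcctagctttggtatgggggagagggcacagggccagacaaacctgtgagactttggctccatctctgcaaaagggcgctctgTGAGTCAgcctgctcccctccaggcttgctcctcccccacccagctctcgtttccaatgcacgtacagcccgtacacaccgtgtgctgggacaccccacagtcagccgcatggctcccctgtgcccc
In *CAMK2B*, CAGGTG occurs 3 times in a row, starting 241, 235 and 229 bases before the start. It lies 245 bases before the start in *DSG1* and 245 and 184 bases before it in *CA9*. TGANTCA lies 172 bases before the start in *BBOX1* and 77 in *CA9*.

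The TGFβ pathway's own genes were mostly higher at d4. Of 11 ligands, receptors and latency proteins tested, 9 were higher and 2 lower, with a median log2 fold change of 1.08 against 0 over all genes. *TGFB1*, the main ligand, had values of 1257, 1336 and 1305 at d0 and 3752, 3706 and 3649 at d4 (log2 fold change 1.51, SE 0.05, adjusted p = 1.44e-16, limma), and the d4 libraries were all above the d0 libraries. *TGFB3*, another ligand, moved the other way at a low level, from a mean of 31.6 to 11.8 (log2 fold change -1.40, SE 0.31, adjusted p = 0.000362, limma). *LTBP2* and *LTBP4*, proteins of the family that stores latent TGFβ in the matrix, rose by 2.71 and 1.33 on the log2 scale. *TGFBR1*, the type I receptor, rose from 761 ± 72.6 to 1290.2 ± 21.9 (SD, n = 3, log2 fold change 0.77, SE 0.09, adjusted p = 2.2e-07, limma). The second member that fell was *TGFBR3*, the coreceptor betaglycan (-1.05), named to complete the count.

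Feedback inhibitors were the members of the SMAD list with the largest increases. Of 13 genes in this list, 11 were higher and 1 lower, with a median of 0.92. *SMAD7*, the inhibitory SMAD that recruits ubiquitin ligases to the receptor, had 117, 99.2 and 106 at d0 and 927, 950.4 and 906 at d4 (log2 fold change 3.10, SE 0.07, adjusted p = 7.27e-20, limma). *PMEPA1*, which binds SMAD2 and SMAD3 and keeps them from the receptor, had 340, 329 and 376 at d0 and 15317, 15279 and 15439 at d4 (log2 fold change 5.46, SE 0.08, adjusted p = 3.20e-23, limma). For both genes the lowest d4 library was more than 7-fold above the highest d0 library. The SMADs that carry the signal, *SMAD2*, *SMAD3* and *SMAD4*, had log2 fold changes of 0.30, 0.40 and 0.42 (that of *SMAD3* did not pass with all libraries set to one total), and were picked after their values were seen. *SKIL*, a nuclear repressor of SMADs, rose by 2.44, and *BAMBI*, a decoy receptor, rose from a mean of 14.8 to 56.4. *TGIF2*, a corepressor, was the member that fell (-0.66) and *NEDD4L* the one that did not pass (-0.08, adjusted p = 0.262). Both are named to complete the count.

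All 9 direct targets tested were higher, with a median of 2.51. *TGFBI*, a matrix protein named for its induction by TGFβ, had 14025, 13919 and 13589 at d0 and 307327, 303407 and 303811 at d4 (log2 fold change 4.46, SE 0.11, adjusted p = 1.22e-18, limma). *ANGPTL4*, a secreted lipase inhibitor, rose by 3.79 and *JUNB*, an AP-1 subunit, by 2.52. The ID proteins, which block basic helix-loop-helix factors, were higher in all 3 members tested. *ID1* had 434, 347 and 347 at d0 and 1174, 1234 and 1381 at d4 (log2 fold change 1.75, SE 0.10, adjusted p = 7.48e-13, limma), *ID2* rose from a mean of 4.23 to 21.8, and *ID3* from 841 to 1162.

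EMT transcription factors were higher in all 11 members tested, with a median of 1.42, and 9 of them passed 2-fold. *SNAI2*, the zinc finger repressor also called SLUG, had values of 1336, 1239 and 1168 at d0 and 8398, 8209.6 and 8154 at d4 (log2 fold change 2.73, SE 0.05, adjusted p = 3.47e-21, limma). *ZEB1*, a repressor of epithelial genes, had 6.23, 5.94 and 4.95 at d0 and 68.4, 65.2 and 60.7 at d4 (log2 fold change 3.30, SE 0.19, adjusted p = 1.49e-12, limma). *TWIST1*, a helix-loop-helix factor, had 104, 109 and 83.1 at d0 and 268, 269 and 256 at d4 (log2 fold change 1.42, SE 0.09, adjusted p = 1.28e-11, limma). None of the 3 overlapped between groups, where 39.1% of all genes had every d4 library above every d0 library. *ZEB1* was low at both times. *HMGA2*, a chromatin protein, and *SOX4*, a SOX family factor, rose by 3.23 and 2.40. *SNAI1* and *PRRX1* fell below the filter on low values, with at most 3 reads in any of the 6 libraries, where a change was not detectable.

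Epithelial transcription factors split. Of 15 tested, 8 were lower, 6 higher and 1 did not pass, with a median of -0.22. Those that fell by at least 2-fold were *GRHL1* (-2.62) and *GRHL3* (-2.0), grainyhead factors of epithelial barriers, *TFAP2C* (-2.14), an AP-2 factor, and *ELF3* (-1.44), an ETS factor. *GRHL1* had 163, 156 and 135 at d0 and 23.1, 25.3 and 22.5 at d4, and *ELF3* had 248, 215 and 218 at d0 and 83.1, 77.9 and 88.1 at d4. The d4 libraries were below every d0 library for both. *TFAP2A*, an AP-2 factor that acts in ectoderm, was among the 6 that rose (0.91), and was picked after its values were seen. *TP63*, which maintains basal cells, rose by 0.32.

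RNA-binding proteins that control the splicing of EMT genes showed 4 of 8 members higher and 2 lower, with a median of 0.16. With all libraries set to one total the counts turned to 2 higher and 4 lower and the median to -0.04. *ESRP2*, a splicing factor of epithelial cells, had 1886, 1910.1 and 1985 at d0 and 792, 739 and 832 at d4 (log2 fold change -1.29, SE 0.08, adjusted p = 3.37e-12, limma), with no overlap. Its paralogue *ESRP1*, picked after its values were seen, moved the other way (log2 fold change 0.26, SE 0.05, adjusted p = 5.51e-05, limma), which did not pass with all libraries set to one total (0.06). *RBM47*, also a splicing factor of epithelial cells, had a log2 fold change of -1.77. *QKI*, which promotes mesenchymal splice forms, rose from 2241 ± 38 to 3000.1 ± 106 (SD, n = 3, log2 fold change 0.42). *MBNL2* had a log2 fold change of 0.36 that no longer passed under the scaling to one total (0.16).

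**Figure D3:**
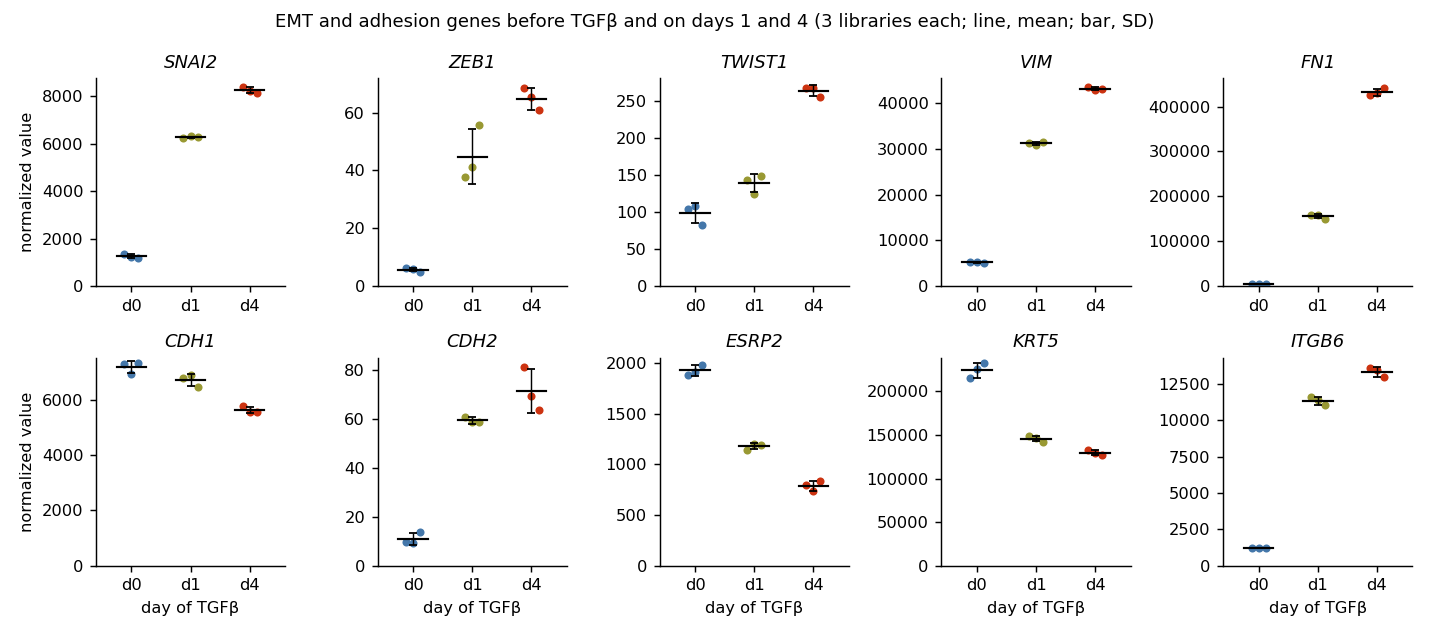
Normalized values of 10 EMT and adhesion genes in each library at d0, d1 and d4 (points), with the mean (line) and SD (bar, n = 3), each panel on its own linear axis from 0. *SNAI2*, *ZEB1*, *TWIST1*, *VIM*, *FN1*, *CDH2* and *ITGB6* are higher at d4 than at d0, and *CDH1*, *ESRP2* and *KRT5* are lower. No panel has overlapping d0 and d4 libraries. Of all genes tested, 39.1% had every d4 library above every d0 library and 38.4% below.

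Cadherins changed in both directions and by unequal amounts. *CDH1*, E-cadherin, the main adhesion protein of epithelia, had values of 7314, 6946 and 7324 at d0 and 5764, 5576 and 5544 at d4 (log2 fold change -0.35, SE 0.06, adjusted p = 1.39e-05, limma). *CDH2*, N-cadherin, its mesenchymal counterpart, had 9.79, 9.33 and 13.8 at d0 and 81.0, 69.1 and 63.6 at d4 (log2 fold change 2.6, SE 0.16, adjusted p = 2.97e-12, limma). *CDH1* was lower in every d4 library than in any d0 library, by less than 2-fold, and *CDH2* was higher in every d4 library than in any d0 library, at a low level. Of 9 cadherins and catenins tested, 6 were higher and 2 lower, with a median of 0.82. *CDH4*, R-cadherin, and *CDH13*, a cadherin anchored to the membrane by lipid, rose by 2.99 and 1.62, and *CDH11* is given above.

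Of 10 desmosome genes in the list, 4 were higher, 1 lower and 5 did not pass, and none of the 10 reached 2-fold. The list does not hold *DSG1*, a desmosomal cadherin given above, which fell (-4.67). With all libraries set to one total the counts turned to 1 higher and 4 lower. *PKP2*, a plakophilin, had 1649, 1580.2 and 1658 at d0 and 1100, 1085 and 1078 at d4 (log2 fold change -0.58, SE 0.06, adjusted p = 9.79e-09, limma) and was lower under every scaling. *DSP*, desmoplakin, and *DSG2*, a desmoglein, had log2 fold changes of 0.42 and 0.31, and that of *DSP* no longer passed under the scaling to one total (0.22) or quantile normalization (0.22). *JUP*, plakoglobin, had 0.13, which turned to -0.06 with all libraries set to one total and to -0.09 with quantile normalization.

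Tight junction genes were lower in 6 of 11 tested and higher in 3, with a median of -0.23. *CLDN1*, a claudin that seals the junction, had 1321, 1195 and 1244 at d0 and 219, 221 and 184 at d4 (log2 fold change -2.59, SE 0.32, adjusted p = 2.81e-07, limma), with a more than 5-fold gap between the groups. *CGN*, cingulin, a junction scaffold, had 545, 569 and 569 at d0 and 196, 205 and 186 at d4 (log2 fold change -1.52, SE 0.07, adjusted p = 7.46e-14, limma). *TJP3*, a junction adaptor, and *MARVELD3*, a junction membrane protein, fell by 5.36-fold and 1.79-fold. The 3 that rose were *F11R*, *CLDN7* and *TJP1*, named to complete the count, with log2 fold changes of 0.60, 0.65 and 0.54. *CLDN8*, below the filter, had 10.7, 19.5 and 15.8 at d0 and no read in any d4 library, and was picked after its values were seen.

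Keratins, the intermediate filaments of epithelia, moved in both directions. Of 15 tested, 5 were higher (33.3%), 7 lower (46.7%) and 3 did not pass, with a median of -0.23. *KRT5*, the basal keratin, had values of 215354, 225595 and 232097 at d0 and 132324, 129346 and 126682 at d4 (log2 fold change -0.79, SE 0.15, adjusted p = 6.11e-05, limma). *KRT14*, its partner, had 70384, 74242 and 73695 at d0 and 97720.5, 98815 and 95081 at d4 (log2 fold change 0.42, SE 0.12, adjusted p = 0.00297, limma), so that the pair moved in opposite directions with the deposited size factors. The rise of *KRT14* did not pass with all libraries set to one total (0.22) and turned to -0.83 with quantile normalization, and reads of *KRT14* can be shared with near-identical keratins and pseudogenes. *KRT7*, a keratin of simple epithelium, rose from 13120.1 ± 387 to 53608 ± 1471 (SD, n = 3, log2 fold change 2.03, SE 0.14, adjusted p = 4.36e-11, limma), while *KRT8* and *KRT18*, also of simple epithelium and picked after their values were seen, had log2 fold changes of -0.29 and -0.47. *KRT23*, an acidic keratin, was at 3 reads in each d4 library and 36.5, 31.4 and 36.6 at d0, a ratio of reads, d0 over d4, of 11.6 (5.9 to 25.9).

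Genes of the cornified envelope, the protein shell of terminally differentiated keratinocytes, were lower in 11 of 14 tested and higher in 2, with a median of -1.39. *SPRR1A*, a small proline-rich envelope precursor, had 244, 243 and 239 at d0 and 11.6, 17.5 and 23.5 at d4 (log2 fold change -3.77, SE 0.35, adjusted p = 4.41e-09, limma). *KRTDAP*, a secreted protein of differentiating keratinocytes, had 19.6, 28.8 and 15.8 at d0 and 3.16, 0 and 0 at d4, a ratio of reads, d0 over d4, of 21.7 (7.14 to 108). The 2 members that rose were *IVL*, involucrin, with 89.9, 113 and 125 at d0 and 1078, 1132 and 1215 at d4 (log2 fold change 3.39, SE 0.12, adjusted p = 6.01e-16, limma), and *LCE3D*, a late envelope protein, with 4.45, 1.70 and 0 at d0 and 55.7, 74.0 and 63.6 at d4 (log2 fold change 4.73, SE 0.41, adjusted p = 1.45e-09, limma). *SPRR* and *LCE* genes are clustered families whose reads can be shared.

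Matrix genes were tested in 4 lists. Of 15 fibronectin and matricellular genes tested, 13 were higher and 1 lower, with a median of 2.02. *VCAN*, versican, a large proteoglycan, had 0.89, 3.39 and 0.99 at d0 and 88.3, 76.9 and 76.4 at d4 (log2 fold change 5.0, SE 0.22, adjusted p = 1.72e-14, limma). *MFAP2*, a microfibril protein, had no read at d0 and 46.3, 43.8 and 58.8 at d4, at least 18.2-fold higher. The member that fell was *BGN*, biglycan (-0.88), and *THBS2* did not pass (-0.45, adjusted p = 0.101), both named to complete the count. Among genes under the filter, *DCN* and *LUM*, the fibroblast proteoglycans, had at most 1 read in any library.

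Interstitial collagens were higher in all 11 tested, with a median of 1.06. *COL1A1*, the first chain of type I collagen, had values of 449, 457 and 479 at d0 and 3874, 4045 and 4248 at d4 (log2 fold change 3.13, SE 0.07, adjusted p = 5.04e-20, limma). *COL1A2*, the second chain, had 2.67, 2.54 and 3.96 at d0 and 66.3, 64.3 and 64.6 at d4, and *COL6A3*, a type VI chain, had 2.67, 8.48 and 4.95 at d0 and 163, 168 and 177 at d4. Both chains of type I collagen had d4 libraries above all d0 libraries. *COL8A1*, a short-chain collagen, rose by 3.19. The summed value of the 5 fibroblast markers was 454.8 to 487.8 at d0 and 3902 to 4274 at d4, nearly all of it *COL1A1*. Of the other markers, *COL3A1* (mean 7.81 to 16.8) and *PDGFRA* (1.19 to 5.66) were also higher at d4, at low levels. *DCN* and *LUM* were at or near 0.

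Basement membrane genes were higher in 12 of 17 tested and lower in 2, with a median of 0.77, and the laminin chains *LAMA3* and *LAMB3*, parts of the sheet that epithelia rest on, were among the largest increases. *LAMA3* had 8804, 8245 and 8058 at d0 and 156187, 154139 and 160089 at d4 (log2 fold change 4.23, SE 0.04, adjusted p = 9.92e-26, limma). *LAMB3* had 8835, 8517 and 8817 at d0 and 118152, 124741 and 116829 at d4 (log2 fold change 3.78, SE 0.04, adjusted p = 1.17e-24, limma). These chains rose by 13.7-fold to 18.8-fold. *COL4A2*, a chain of type IV collagen, rose by 1.89. The 2 members that fell were *COL4A6* (-0.31) and *LAMA2* (-0.64), named to complete the count.

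Enzymes that hydroxylate and crosslink collagen were higher in 11 of 13 tested and lower in none, with a median of 0.71. *LOX*, the lysyl oxidase that crosslinks collagen and elastin, had 334, 329 and 303 at d0 and 5651, 5246 and 5151 at d4 (log2 fold change 4.05, SE 0.08, adjusted p = 8.04e-21, limma). *P4HA3* and *P4HA2*, prolyl hydroxylase subunits, rose by 4.18 and 1.43, and *LEPRE1*, a prolyl 3-hydroxylase, rose from a mean of 646 to 1484.

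**Figure D4:**
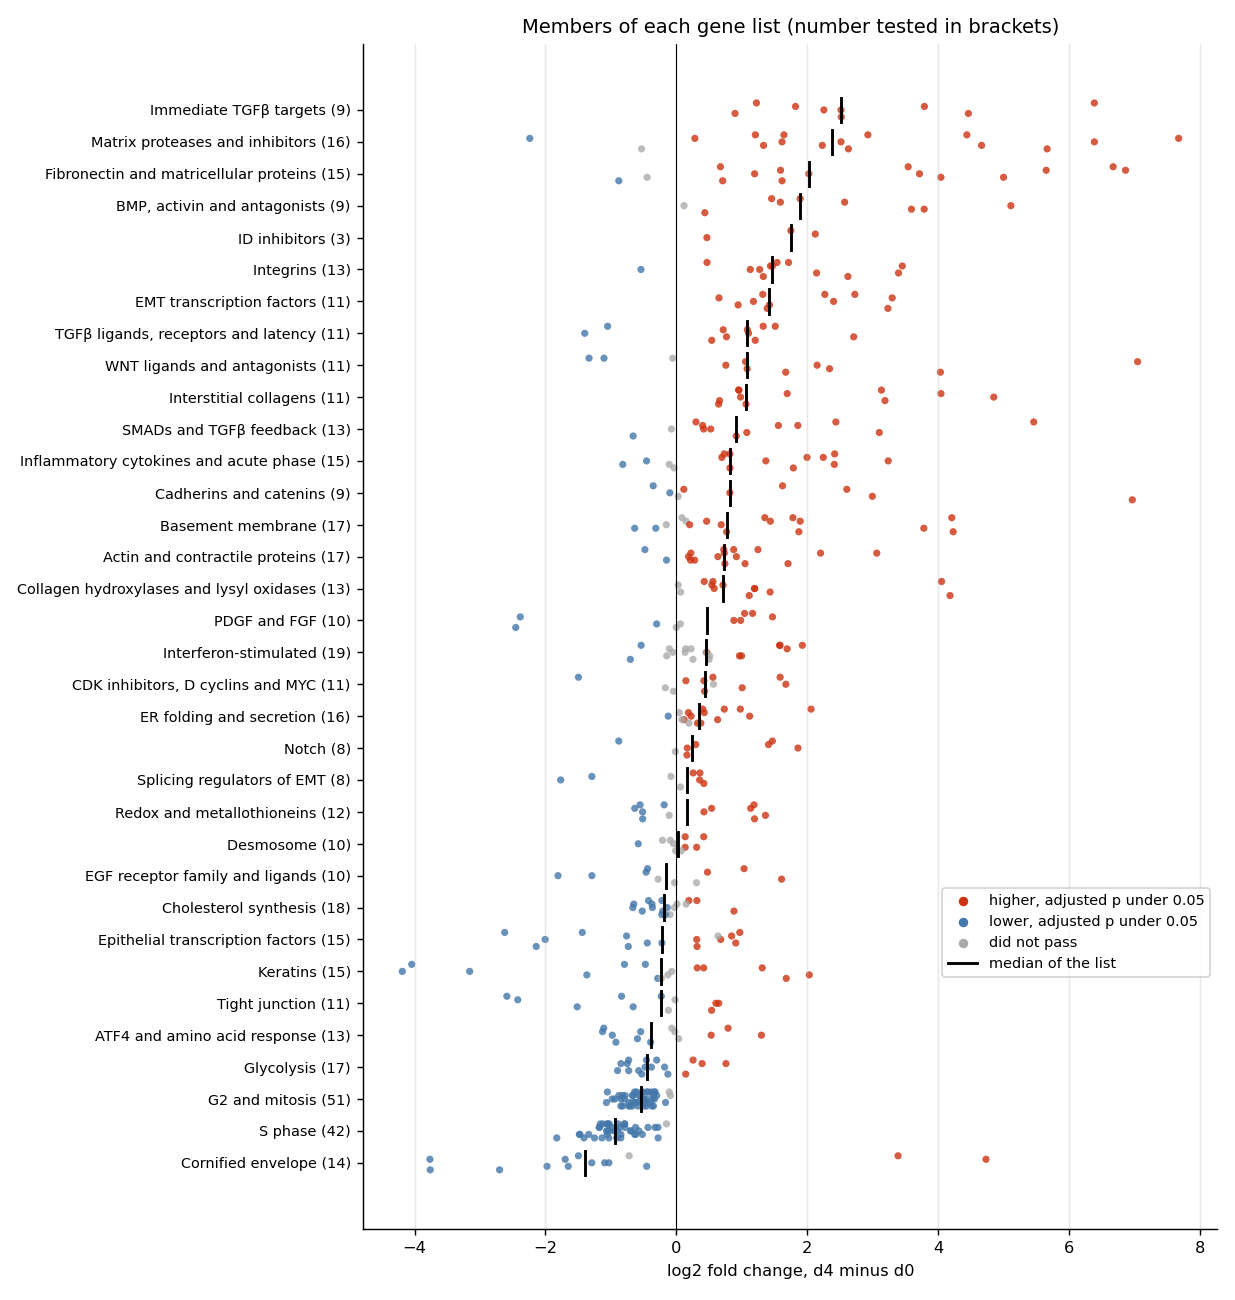
Log2 fold change of d4 over d0 for each tested member of 34 gene lists, ordered by list median (black bar), with members higher in red, lower in blue and not passing in grey at an adjusted p under 0.05 (limma). Medians run from 2.51 for the direct TGFβ targets to -1.39 for the cornified envelope, and no tested member of the S phase and G2 lists is above 0.

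Integrin genes, whose products link cells to the matrix, were higher in 12 of 13 tested, with a median of 1.47. *ITGB6*, the epithelial subunit that pairs with αv and can activate latent TGFβ, had values of 1222, 1199 and 1232 at d0 and 13589, 13444 and 12962 at d4 (log2 fold change 3.45, SE 0.06, adjusted p = 4.64e-21, limma). *ITGB4*, the laminin receptor subunit of hemidesmosomes, had 12686, 12876 and 12580.2 at d0 and 76527, 79342 and 78793 at d4 (log2 fold change 2.62, SE 0.07, adjusted p = 7.98e-19, limma). *ITGA5*, the fibronectin receptor subunit, had 4658, 4450.4 and 4962 at d0 and 20563, 21196 and 20316 at d4 (log2 fold change 2.14, SE 0.07, adjusted p = 9.01e-17, limma). For all 3 the lowest d4 library was more than 4-fold above the highest d0 library. *ITGB1*, the partner of most α subunits, rose from a mean of 21116 to 46202 (log2 fold change 1.13, SE 0.04, adjusted p = 6.18e-17, limma), and *ITGB3* rose from 2.71 to 37.4. *ITGB8* was the member that fell (-0.54), named to complete the count.

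Of 16 matrix proteases and inhibitors tested, 14 were higher and 1 lower, with a median of 2.37. *ADAM19*, a membrane metalloprotease, had 106, 113 and 109.8 at d0 and 5288, 5826 and 5702 at d4 (log2 fold change 5.66, SE 0.14, adjusted p = 6.93e-19, limma). *SERPINE2*, a thrombin and plasminogen activator inhibitor, had 142, 153 and 146 at d0 and 3786, 3739 and 3696 at d4 (log2 fold change 4.66, SE 0.05, adjusted p = 1.28e-25, limma). Each d4 library was more than 20-fold above every d0 library for both genes. *PLAT*, the tissue plasminogen activator, was the member that fell (293 to 61.4, log2 fold change -2.24), and *SERPINB2*, also an inhibitor of plasminogen activators, did not pass (-0.53, adjusted p = 0.0698). They complete the count.

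Of 17 actin and contractile genes tested, 15 were higher and 2 lower, with a median of 0.73, and 5 passed 2-fold. With all libraries set to one total 11 were higher and 2 lower. *VIM*, vimentin, the mesenchymal intermediate filament kept in this list, had 5215, 5231 and 5097 at d0 and 43565, 43040.3 and 43152 at d4 (log2 fold change 3.06, SE 0.08, adjusted p = 7.98e-19, limma), with an 8-fold gap between the groups. *TAGLN*, the actin-binding protein SM22, had 166, 186 and 152 at d0 and 814, 765 and 748 at d4 (log2 fold change 2.2, SE 0.14, adjusted p = 1.07e-11, limma). *TPM1*, tropomyosin, and *ACTN1*, an actinin that crosslinks actin, rose by 1.71 and 1.25. *ACTN1* had 9864, 9944 and 10339 at d0 and 23237, 24146 and 24132 at d4. The members that fell were *TPM2* (-0.48) and *MYLK* (-0.15), named to complete the count.

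In the EGF receptor family and its ligands, 3 of 10 were higher (30.0%) and 4 lower (40.0%), near the shares over all genes (36.6% and 35.8%), with a median of -0.15. *EGFR* rose from 4938 ± 201 to 10111 ± 100.1 (SD, n = 3, log2 fold change 1.03, SE 0.04, adjusted p = 6.79e-15, limma), and *ERBB3*, a receptor of neuregulins, had 1069.7, 1042 and 1058 at d0 and 433, 397 and 466 at d4 (log2 fold change -1.29, SE 0.12, adjusted p = 2.38e-09, limma). The ligand *AREG* rose from a mean of 38.5 to 120.5 and the ligand *BTC* fell from 17.6 to 4.36. In the PDGF and FGF list, 5 of 10 were higher and 3 lower. *FGFR3*, an FGF receptor of epithelia, had 4445, 4892 and 4672 at d0 and 872, 821 and 861 at d4 (log2 fold change -2.45, SE 0.13, adjusted p = 6.97e-13, limma), and *FGFBP1*, a carrier that releases FGFs from the matrix, had 6723, 6898 and 7465 at d0 and 1346, 1352 and 1335 at d4 (log2 fold change -2.38, SE 0.11, adjusted p = 1.61e-14, limma). Both fell by more than 4-fold in every pair of libraries, while the ligands *PDGFB* (1.47) and *FGF5* (1.16) rose.

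WNT, BMP and activin genes were mostly higher. Of 11 WNT ligands, antagonists and targets tested, 8 were higher and 2 lower, with a median of 1.08. *WNT7B* had 165, 164 and 182 at d0 and 900.2, 863 and 832 at d4 (log2 fold change 2.34, SE 0.06, adjusted p = 4.09e-18, limma), and *WNT7A* rose by 2.15. *AXIN2*, a feedback target of canonical WNT signalling, went from 2.67, 2.54 and 0.99 to 43.1, 42.8 and 57.8, a ratio of reads of 22.7 (10.75 to 57.5). The 2 lower members, *WNT4* (-1.11) and *WNT10A* (-1.33), complete the count. In the BMP and activin list 8 of 9 were higher and none lower, with a median of 1.89. *INHBA*, the subunit of activin A, which signals through the same SMADs as TGFβ, had 308, 252 and 299 at d0 and 3906, 4004 and 3927 at d4 (log2 fold change 3.79, SE 0.11, adjusted p = 7.41e-18, limma). *FSTL3*, an activin antagonist, rose from a mean of 1364 to 8105. The BMP antagonists *NOG* and *GREM1* rose as well, *NOG* from 3.83 to 53.9 and *GREM1* from no read at d0 to 37.9, 35.0 and 28.4, at least 12.4-fold higher.

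In the Notch list 6 of 8 were higher and 1 lower, with a median of 0.23, and with all libraries set to one total 4 were higher. *JAG1*, a ligand, had 1181, 1111 and 1056 at d0 and 2993, 3112 and 3146 at d4 (log2 fold change 1.47, SE 0.05, adjusted p = 2.86e-16, limma). The targets *HES1* and *HEY1* rose by 1.41 and 1.86. *NOTCH3*, a receptor, had 2013, 2087 and 1940.2 at d0 and 1045, 1115 and 1120.2 at d4 (log2 fold change -0.88, SE 0.33, adjusted p = 0.0218, limma), and its adjusted p missed the threshold without d0 library 2 (-0.85) or without d4 library 1 (-0.85).

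Cell cycle genes were lower at d4. Of 42 S phase genes tested, 41 were lower and none higher, with a median of -0.93, and 19 fell by at least 2-fold. *HELLS*, a chromatin remodeller of replicating cells, had values of 974, 918 and 964 at d0 and 248, 268 and 288 at d4 (log2 fold change -1.83, SE 0.08, adjusted p = 7.91e-15, limma). *GINS2* and *CDC45*, parts of the replicative helicase, were lower as well. *GINS2* had 1132, 1092 and 1172 at d0 and 394, 424 and 397 at d4. *CDC45* had 1031, 1031 and 1071 at d0 and 396, 393 and 386 at d4. All 42 members had every d4 library below every d0 library, where 38.4% of all genes did. *CASP8AP2* was the member that did not pass (-0.15, adjusted p = 0.0568), named to complete the count. Fewer cycling cells and less of these RNAs per cell cannot be told apart in bulk libraries.

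Of 51 genes of G2 and mitosis, 49 were lower and none higher, with a median of -0.54, and 2 fell by at least 2-fold. These were *HMMR*, a spindle protein, with 3989.6, 4038 and 3918 at d0 and 1987, 1840.4 and 1868 at d4 (log2 fold change -1.07, SE 0.05, adjusted p = 8.63e-14, limma), and *HMGB2*, a chromatin protein, with 9269, 9954 and 9561 at d0 and 4831, 4498 and 4536 at d4 (log2 fold change -1.05, SE 0.05, adjusted p = 1.90e-13, limma). *MKI67*, the proliferation antigen Ki-67, fell from 10671 ± 59.7 to 7346 ± 216 (SD, n = 3, log2 fold change -0.54, SE 0.12, adjusted p = 0.00034, limma). In the direct contrast of d4 with d1, which does not use d0, 40 of the 42 S phase genes and 38 of the 51 G2 and mitosis genes were lower and 0 and 1 higher (31.9% of all genes lower and 33.0% higher), with medians of -0.87 and -0.24. At d1, against the same d0 libraries, 30.9% of all genes were higher and 29.1% lower. By that contrast 15 S phase genes were lower and 8 higher, with a median of -0.05, and 39 G2 and mitosis genes were lower and none higher.

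Regulators of the G1 phase moved both ways. Of 11 CDK inhibitors, D cyclins and MYC, 7 were higher, 1 lower and 3 did not pass, and with all libraries set to one total 4 were higher and 3 lower. *CDKN1A*, the inhibitor p21, had 1937, 1831 and 1668 at d0 and 5413, 5725 and 5163 at d4 (log2 fold change 1.58, SE 0.32, adjusted p = 0.000172, limma). *CDKN2C*, the inhibitor p18, had 1166, 1232 and 1106 at d0 and 399.6, 399 and 442 at d4 (log2 fold change -1.5, SE 0.06, adjusted p = 9.40e-15, limma). The D cyclins *CCND1* and *CCND2*, which drive entry into S phase, rose by 1.67 and 1.01. *CDKN2B*, the inhibitor p15 and a known TGFβ target, rose from a mean of 1015 to 1366 (log2 fold change 0.43, SE 0.17, adjusted p = 0.0295, limma), which did not pass with all libraries set to one total (0.23), and was picked after its values were seen.

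**Figure D5:**
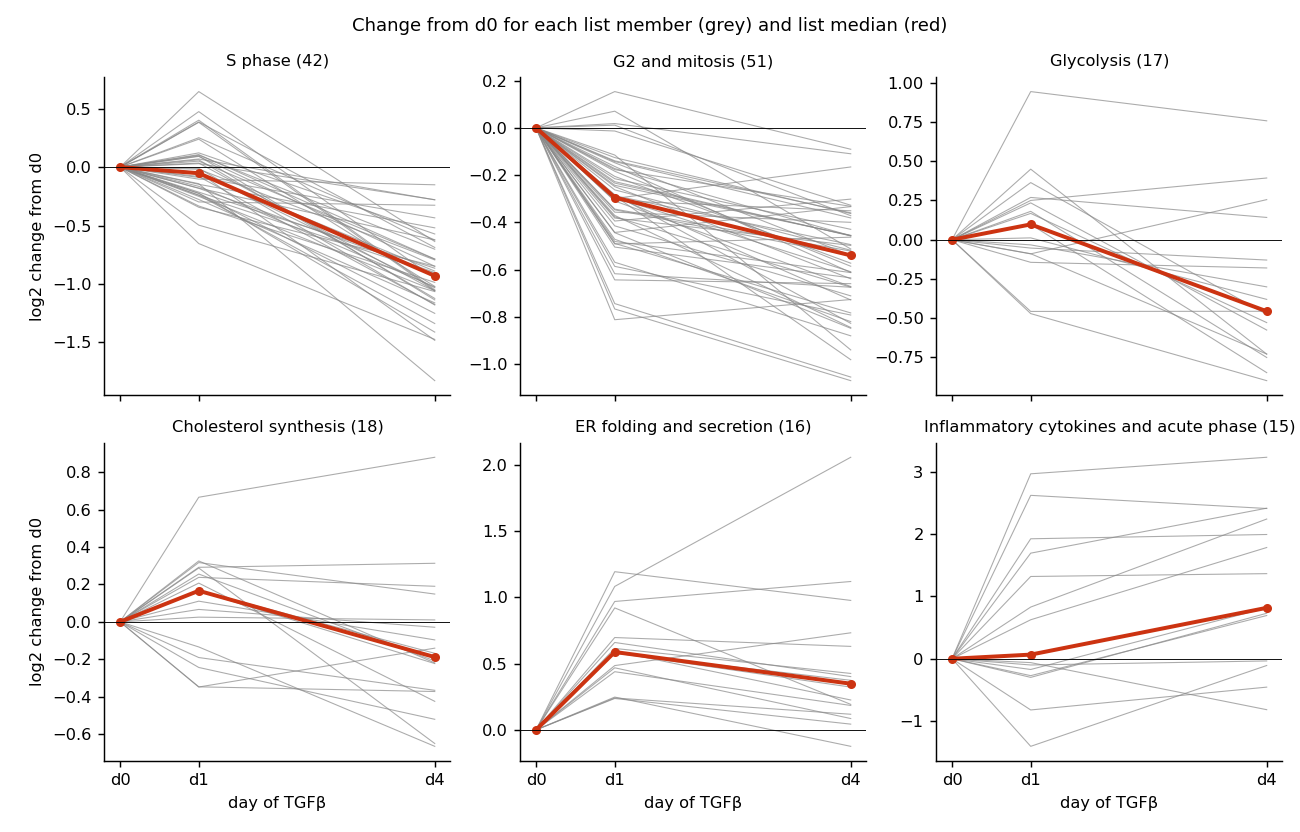
Log2 change from d0 at d1 and d4 for each member of 6 gene lists (grey lines) and the list median (red), with the days to scale on the x axis. The S phase median is -0.05 at d1 and -0.93 at d4, the glycolysis median turns from 0.10 to -0.46, and the ER folding median is 0.59 at d1 and 0.35 at d4.

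Glycolysis genes, which turn glucose into pyruvate and lactate, were lower in 13 of 17 tested and higher in 4, with a median of -0.46 and none at 2-fold. *PGK1*, phosphoglycerate kinase, had 11381, 11394 and 12094 at d0 and 6946, 6992 and 6782 at d4 (log2 fold change -0.75, SE 0.03, adjusted p = 3.90e-14, limma). *ALDOC*, an aldolase, had 3376, 3479 and 3454 at d0 and 1887, 1823 and 1821 at d4 (log2 fold change -0.90, SE 0.04, adjusted p = 2.37e-14, limma), and *PDK1*, a kinase that inhibits pyruvate dehydrogenase, fell from a mean of 604 to 335. The groups did not overlap for any of these, where 38.4% of all genes had every d4 library below every d0 library. *PFKP*, a phosphofructokinase, was the member with the largest rise (0.76). Against d1, 12 members were lower at d4 and 2 higher (31.9% and 33.0% of all genes), with a median of -0.39. *CA9*, given above, was 483, 441 and 494 at d1, between its values at d0 and d4.

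Cholesterol synthesis genes were lower in 11 of 18 tested and higher in 3, with a median of -0.19. *FDPS*, which makes farnesyl pyrophosphate, had 7888, 7936 and 7861 at d0 and 5069, 5024 and 4994 at d4 (log2 fold change -0.65, SE 0.09, adjusted p = 8.18e-07, limma). *SQLE*, squalene epoxidase, rose from 16080.5 ± 371 to 29619 ± 1414 (SD, n = 3, log2 fold change 0.88, SE 0.05, adjusted p = 1.10e-12, limma). *PMVK*, a mevalonate pathway kinase, fell from a mean of 702 to 489. At d1 the same list had 10 members higher and 5 lower than at d0, where 30.9% and 29.1% of all genes were. Against d1, 11 members were lower at d4 and 2 higher (31.9% and 33.0% of all genes).

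Amino acid and redox genes were mixed. Of 13 genes of the ATF4 response, 7 were lower and 3 higher, with a median of -0.39. *SLC7A11*, the cystine transporter, had 4158, 3668 and 4029 at d0 and 1762, 1827 and 1829 at d4 (log2 fold change -1.13, SE 0.10, adjusted p = 2.78e-09, limma), and *SLC7A5*, a transporter of large neutral amino acids, fell from 49130.4 ± 1566 to 22773 ± 784 (SD, n = 3). *PSAT1*, an enzyme of serine synthesis, had a log2 fold change of -0.98, and *CEBPB*, a transcription factor, rose by 1.30. In the redox list 6 of 12 were higher, 5 of them metallothioneins, the metal-binding proteins, and 5 were lower. The list median of 0.16 turned to -0.04 under the scaling to one total. *MT2A* had 22726, 24492 and 27283 at d0 and 53539, 60379 and 49847 at d4 (log2 fold change 1.14, SE 0.17, adjusted p = 5.12e-06, limma), and *MT1F*, *MT1G* and *MT1X* rose by 1.36, 1.19 and 1.19. Metallothionein genes are near-identical copies, so that reads may be split among them.

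Inflammatory genes were higher in 11 of 15 tested and lower in 2, with a median of 0.82. *IL11*, a cytokine of fibrosis, had 24.9, 25.4 and 21.8 at d0 and 229, 242 and 232 at d4 (log2 fold change 3.24, SE 0.11, adjusted p = 9.84e-17, limma). *IL1A* had 1404, 1146 and 1324 at d0 and 6508, 7027 and 7128 at d4 (log2 fold change 2.42, SE 0.18, adjusted p = 1.10e-10, limma), and *IL1B*, also an interleukin-1, had 101, 97.5 and 94.0 at d0 and 487, 472 and 441 at d4 (log2 fold change 2.24, SE 0.19, adjusted p = 6.11e-10, limma). *CXCL1*, a neutrophil chemokine, rose from a mean of 20.6 to 111. None of these overlapped between groups, where 39.1% of all genes had every d4 library above every d0 library. Against d1, 10 of the 15 were higher at d4 and 1 lower (33.0% and 31.9% of all genes).

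Interferon-stimulated genes were higher in 7 of 19 tested, a share of 36.8% beside 36.6% of all genes, and lower in 2 (10.5%), with a median of 0.45. With all libraries set to one total 4 were higher and 4 lower. *IRF9*, a subunit of the interferon-activated complex, had 203, 182 and 158 at d0 and 636, 805 and 634 at d4 (log2 fold change 1.92, SE 0.16, adjusted p = 1.05e-09, limma). *IFI6* had 69.4, 68.7 and 60.4 at d0 and 188, 266 and 159.6 at d4 and *OAS2*, which senses double-stranded RNA, had 53.4, 43.3 and 39.6 at d0 and 119.9, 202 and 105 at d4. In all 3 genes d4 library 2 was the highest, and the spread at d4 was wider than at d0. *IFI27* rose from a mean of 11.6 to 39.5. The median at d1 was -0.07, and against d1 10 members were higher at d4 and none lower (33.0% and 31.9% of all genes).

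Genes of protein folding in the endoplasmic reticulum were higher in 12 of 16 tested and lower in 1, with a median of 0.35, and in 9 with all libraries set to one total. *DNAJB9*, a cochaperone, had 158, 177 and 142 at d0 and 676, 657 and 655 at d4 (log2 fold change 2.06, SE 0.08, adjusted p = 1.02e-15, limma). *HSPA5*, the chaperone BiP, had 10380.3, 10440.4 and 10949.6 at d0 and 21114, 20696 and 20716 at d4 (log2 fold change 0.98, SE 0.06, adjusted p = 7.11e-12, limma). *HERPUD1*, a degradation factor, and *XBP1*, a transcription factor of the unfolded protein response, rose by 1.12 and 0.73. Against d1, 12 of the 16 were lower at d4 and 3 higher (31.9% and 33.0% of all genes). *DNAJB9* was among those higher (0.97).

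Set directly against d1, 573 genes were higher at d4 by at least 2-fold (4.3%) and 251 lower (1.88%, limma). The filter on low values used d0 and d4 only. Genes with reads mainly at d1 are therefore missing from the counts in this paragraph, which bears on those that fell from d1. With a mean of 50 or more at d1 or d4 required, the 3 with the largest increase were *KDR*, a VEGF receptor, *DBP*, a circadian transcription factor, and *RASD2*, a small GTPase. *RASD2* went from 24.1, 25.6 and 25.8 at d1 to 226, 212 and 258 at d4, with 18.7, 19.5 and 7.92 at d0. *KDR* and *DBP* were lower at d1 than at either other time, and their change from d0 to d4 did not pass in the main fit. With only d0 and d4 in the fit both passed, and *KDR* also passed with the d7 libraries left out. For both genes every d4 library was above every d0 library. *KDR* had 3.14, 6.15 and 6.95 at d1, against 41.8, 50.9 and 33.6 at d0 and 71.5, 69.1 and 56.8 at d4 (log2 fold change 0.64, SE 0.42, adjusted p = 0.177, limma). *DBP* had 23.0, 6.15 and 5.95 at d1, against 87.2, 77.2 and 76.2 at d0 and 109, 93.5 and 102 at d4 (log2 fold change 0.34, SE 0.40, adjusted p = 0.456, limma). Besides *CA9*, *GPX2*, a glutathione peroxidase, fell the most relative to d1, from 76.3, 64.6 and 71.5 to 9.47, 9.74 and 13.7, and had 134, 157 and 164 at d0. Of all genes tested, 163 (1.22%) passed in opposite directions at d1 and d4 with at least a 2-fold difference between the days, 115 of them lower and then higher and 48 higher and then lower. These counts share the d0 libraries, so that spread in d0 bears on both days.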

How the data were processed

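RNA-seq of HMLE cells was deposited as 1 table of 21 libraries. The deposited values are a signal: the authors divided reads per gene symbol by 1 factor per library, and multiplying values of up to 2000 by that factor gave whole reads in 100% of cases (tolerance 0.1). The submitters' processing notes name STAR 2.7, Salmon 1.4 and hg19, and the normalization tool is not given in the sources used here. log2(value + 1) was tested with limma 3.58.1 (R 4.3.3, trended empirical Bayes) over all 21 libraries, with 1 mean per timepoint, and p-values were Benjamini-Hochberg adjusted over 13336 genes with a mean of at least 10. On simulated data limma recovered 96.9% of 192 changed genes among 13055, with 6 false calls. The simulation had only d0 and d4 libraries, equal changes up and down, an assumed dispersion and no genes near 0 at d0. The data had a far larger share of changed genes and 21 libraries in the fit. The recovery and false calls therefore do not carry over to the data. edgeR 4.0.16 and DESeq2 1.42.0 were run on the recovered reads as alternatives.

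Genes named are the 10 largest changes each way (mean at least 50), up to 4 passing members per list by size of change, 17 chosen genes and the 3 largest changes each way from d1. Others are said to be named to complete a count or picked after their values were seen. A few genes that this rule takes are not reported here. The members and lists were chosen with earlier results of these data known. A fold change is called a lower bound only where a group had no read, against a floor of 3 reads per library. Other named genes with at most 3 reads in each library of a group have a ratio of reads with its 95% interval. Low genes above that floor have the fitted fold change or their values only. The bound and the interval cover counting error only. Replicate pairs differed beyond sampling noise (chi-square per gene 2.05 to 2.86), so none was counted as a duplicate. SEs and p-values rest on the spread between libraries of one timepoint, pooled over all 21 libraries. They are not the spread of the d0 and d4 libraries alone, and a gene that varied on other days has a larger SE. Values are not corrected for gene length, so levels are not compared between genes.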

Additional observations from a re-analysis of the deposited data

Results flagged for a closer look

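*LOC728643*, an uncharacterized gene symbol, had effects in opposite directions on the 2 days. Its normalized values were 98.8, 128 and 113 at d0, 304, 272 and 284 at d1, and 49.4, 49.7 and 53.8 at d4, so that all d1 libraries were above and all d4 libraries below those of d0. The difference between d4 and d1 was -2.47 on the log2 scale (adjusted p = 1.26e-12, limma with Benjamini-Hochberg adjustment), and the change from d0 to d4 was -1.13.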

How the results depend on the processing

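No paired analysis was possible because no replicate number stands in the column heads. The counts of genes changed at least 2-fold between d0 and d4, 1247 higher and 728 lower, ranged from 1215 to 1271 and from 716 to 745 when each library was left out in turn. Against d1, 573 higher and 251 lower became 554 to 591 and 246 to 281. With all libraries set to one total, 1107 genes were lower than at d0. With no minimum fold change, 4883 were higher and 4769 lower than at d0, and 4403 higher and 4252 lower than at d1. Against d1, a pseudocount of 10 gave 365 higher and 158 lower, no filter on low values gave 392 lower, and quantile normalization gave 377 lower. edgeR called 1191 higher and 802 lower than at d0 and DESeq2 1264 and 745. *JUP* turned to -0.0626 with one total and -0.0922 with quantile normalization, and *KRT14* to -0.83 with quantile normalization. The cause was not tested. Of the other values of named genes, 2195 kept their direction and side of the threshold, 11 no longer passed and 3 newly passed. Those that newly passed were of *KDR* and *DBP*, with fewer groups in the fit. Genes near 3 reads per library are limited by depth.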
